A study of Rattus norvegicus with 48 samples.

Results

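The genes of cholesterol and fatty acid synthesis described here are 34 named genes, of which 32 were measured, among 14506 genes in all. They were taken by symbol: 18 belong to the sterol arm from acetoacetyl-CoA to cholesterol, 6 to the regulators and sterol transport, and 10 to the lipogenic arm. For each gene the probe set of highest mean over the 48 arrays was used. Hmgcs1, the cytosolic synthase of hydroxymethylglutaryl-CoA, had no probe set with a single symbol here. The probe set of Srebf1, the transcription factor of the lipogenic genes, also carried the symbol of Pemt, so Srebf1 has no value.

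Liver biopsies from the right lobe of male Wistar rats were hybridised to Affymetrix arrays, 1 animal per array. The IPC+IPO group held 10 rats that had both preconditioning and postconditioning. The IPO group held 10 rats in which 3 cycles of 30 sec of reflow and 30 sec of occlusion were applied directly after the ischemia. In the 10 rats of the IPC group, an occlusion of 10 min followed by 10 min of reflow preceded the insult. The IRI group held 10 rats with the insult alone, and these 4 groups all had 30 min of ischemia of the whole liver and 30 min of reperfusion. The sham group held 8 rats with laparotomy and no ischemia. All animals were anaesthetised with fentanyl, fluanisone and midazolam, and were housed with free access to food. Values are log2 expression values made by RMA, which puts all arrays on 1 scale, so a difference of 1 is a 2-fold difference. Levels are set against each other only within a gene.

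Hepatocytes make cholesterol from acetyl-CoA through mevalonate, farnesyl diphosphate, squalene and lanosterol, and make fatty acids from the same precursor through malonyl-CoA. The sterol enzymes are switched on together by the transcription factor encoded by Srebf2, which Scap escorts out of the endoplasmic reticulum when sterols are low and which Insig1 and Insig2 hold back when sterols are high. The lipogenic enzymes are driven mainly by Srebf1, by insulin and by carbohydrate feeding, and Insig1 is itself a target of the sterol factor, so its transcript is commonly read as a sign of that factor's activity.

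Upstream sequence is shown for 5 of the 7 genes that passed the test in a comparison of IRI with sham or of a conditioned group with IRI, because the results of those comparisons turn on them. The windows hold the bases before a gene start listed in the RefSeq table (build GRCr8), and some of these starts lie inside the annotated gene. Capitals mark matches to CCAAT, the box bound by NF-Y, which reads ATTGG when it lies on the opposite strand, and to CACGTG, an E-box. For Fdps the window is chr2:176804817-176805066 on the minus strand. For Tm7sf2 it is chr1:212789573-212789791 on the minus strand, for Nsdhl chrX:155817110-155817300 on the plus strand, for Dhcr7 chr1:208444184-208444433 on the plus strand and for Elovl5 chr8:87670914-87671163 on the plus strand. In Nsdhl and Tm7sf2 the bases that lie inside the annotated gene were left off. The windows of Insig2 and Scd lie wholly inside the annotated span of these genes and are not shown.
Fdps: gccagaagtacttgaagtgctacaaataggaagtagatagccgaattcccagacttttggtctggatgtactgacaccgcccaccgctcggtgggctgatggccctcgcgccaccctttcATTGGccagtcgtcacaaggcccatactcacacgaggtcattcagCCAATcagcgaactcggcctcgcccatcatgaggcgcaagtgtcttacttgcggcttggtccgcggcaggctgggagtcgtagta
Tm7sf2: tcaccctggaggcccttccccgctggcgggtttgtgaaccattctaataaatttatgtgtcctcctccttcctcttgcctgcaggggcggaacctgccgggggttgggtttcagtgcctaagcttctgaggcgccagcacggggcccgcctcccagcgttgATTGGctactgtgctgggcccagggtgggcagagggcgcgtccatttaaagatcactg
Nsdhl: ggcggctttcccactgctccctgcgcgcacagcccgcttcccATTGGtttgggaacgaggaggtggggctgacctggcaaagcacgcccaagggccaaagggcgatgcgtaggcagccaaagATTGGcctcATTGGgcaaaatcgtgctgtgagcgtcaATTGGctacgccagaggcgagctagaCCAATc
Dhcr7: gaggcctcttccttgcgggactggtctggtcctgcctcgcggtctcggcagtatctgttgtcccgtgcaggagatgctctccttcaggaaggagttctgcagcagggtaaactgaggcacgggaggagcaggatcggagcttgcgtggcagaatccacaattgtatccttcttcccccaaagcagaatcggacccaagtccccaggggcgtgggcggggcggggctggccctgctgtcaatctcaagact
Elovl5: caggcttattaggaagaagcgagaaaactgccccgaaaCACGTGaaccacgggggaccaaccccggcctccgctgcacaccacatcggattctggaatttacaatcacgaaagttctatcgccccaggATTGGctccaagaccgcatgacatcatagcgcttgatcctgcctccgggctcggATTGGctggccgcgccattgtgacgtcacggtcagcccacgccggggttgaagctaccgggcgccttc

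A window of 250 bases was at hand for 27 of the 34 genes. Not all of these windows are upstream of the annotated gene. Those of Insig2, Hmgcs1, Srebf2 and Acly lie inside its span and are among the windows counted below as holding CCAAT. Srebf1 was counted if either of its windows matched. CCAAT, searched on both strands, stood in 20 of the 27 windows, against 36.1% of the windows of 27457 genes. It stood in 12 of 15 sterol genes, 4 of 5 regulators and 4 of 7 lipogenic genes. On the gene's own strand alone it was found in 7 of the 27, against 20.4% of all windows, so that count was near the share of all genes. CACGTG stood in 4, those of Elovl5, Insig1, Sc5d and Scap, against 6.18% of all windows. The sterol regulatory motif TCACNCCAC, on either strand, stood in none of the 27 and in 1.09% of all windows. Dhcr7, shown above without a capital, and Scd held none of the 3 motifs, while Nsdhl held 5 CCAAT boxes. These counts describe letters in a window and were not tested.

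Hepatocyte markers were bright in every group: the mean log2 value over 10 markers (among them Alb, Apoa1 and Ttr) was 12.26 in IPC+IPO, 12.32 in IPO, 12.20 in IPC, 12.06 in IRI and 12.14 in sham livers. Over 6 Kupffer cell markers it was 7.62, 7.60, 7.70, 7.20 and 7.30 in the same order, and over 3 erythroid markers 7.59, 7.48, 7.40, 7.85 and 7.19. In a biopsy, fewer cells of a type and less RNA per cell cannot be told apart. The arrays also differed in spread, the standard deviation of their log2 values over all genes, although RMA gave them medians between 5.78 and 5.92. Mean spread was 1.86 ± 0.153 (SD) in IPC+IPO, 1.91 ± 0.065 in IPO, 1.85 ± 0.083 in IPC, 1.77 ± 0.111 in IRI and 1.72 ± 0.134 in sham livers. Of the 32 genes 30 lie among the 4835 brightest genes, and the comparisons were also fitted with spread as a covariate. The exceptions were Lss and Elovl6. No date or batch is given in the labels used here.

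Both arms stood lowest in sham livers. The level of an arm in an animal was taken as the median, over its genes, of the deviation from the gene's mean over the 48 arrays. The sterol arm (17 genes) averaged 0.019 ± 0.48 (SD) in IPC+IPO, 0.127 ± 0.176 in IPO, 0.196 ± 0.212 in IPC, 0.006 ± 0.301 in IRI and -0.422 ± 0.429 in sham livers. It was above 0 in 6, 9, 8 and 6 of 10 animals of the ischemic groups, and in 1 of 8 sham animals, number 43. The lipogenic arm (10 genes) averaged 0.009 ± 0.406 in IPC+IPO, 0.302 ± 0.253 in IPO, 0.23 ± 0.476 in IPC, -0.176 ± 0.39 in IRI and -0.375 ± 0.456 in sham livers. It was above 0 in 5, 9, 8 and 3 of 10 animals and in 2 of 8 sham animals. The sterol level exceeded the lipogenic level in 9 of 10 IRI animals, in 6 of 10 IPC+IPO, 2 of 10 IPO and 2 of 10 IPC animals, and in 4 of 8 sham animals. These levels are a description, and no test was run on them.

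**Figure D1:**
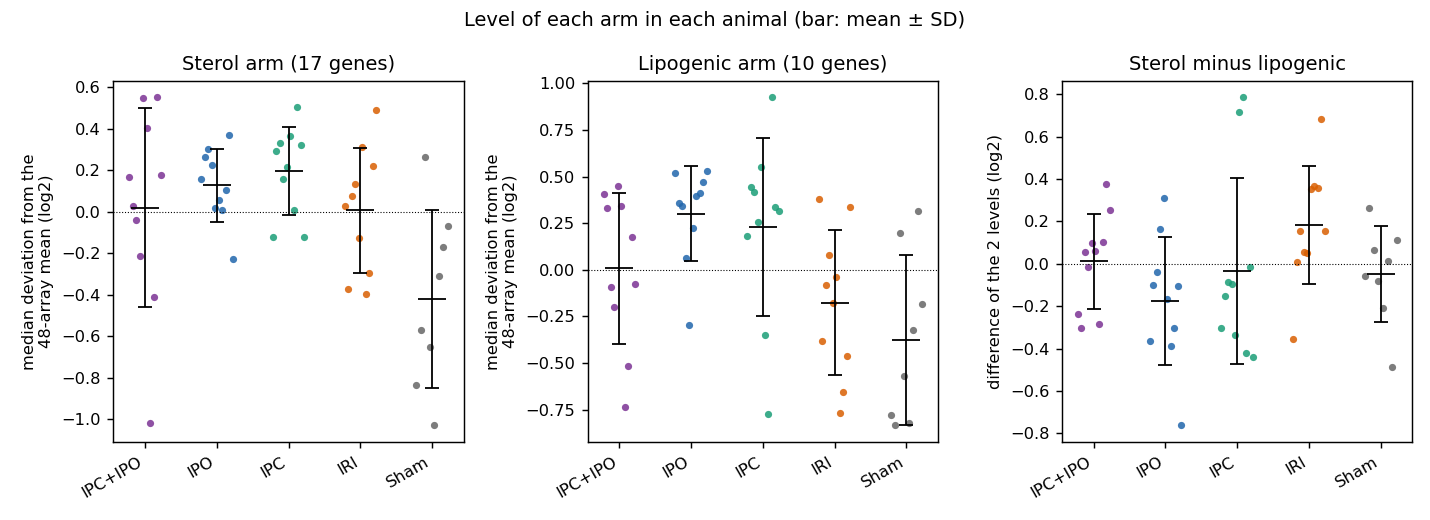
Level of the sterol arm, level of the lipogenic arm and their difference (log2, median deviation from the mean over 48 arrays) in each animal, with group mean and SD. Sham animals lie lowest on average in both arms, at -0.422 and -0.375, and 9 of 10 IRI animals have a sterol level above their lipogenic level.

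The comparison of IRI with sham asks what ischemia and short reperfusion alone changed. Of the 32 genes 2 rose and none fell (limma, adjusted p under 0.05, Benjamini-Hochberg over 14506 genes), against 0.172% of all genes and 0.496% of the 4835 brightest genes that rose, and 0.0689% of all genes that fell. Both belong to the sterol arm. All 17 sterol genes had a difference above 0, with a median of 0.41 on the log2 scale, against 0.40 over 5 regulators, 0.19 over 10 lipogenic genes and 0.03 over all genes. Of all genes 58.4% lay above 0, and a median over the 4835 brightest genes is not given here. At an unadjusted p under 0.05, 13 of the 32 were higher and 0 lower, against 8.32% and 3.14% of all genes. In the next paragraphs the values of a group are its lowest, median and highest log2 value.

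Fdps, the synthase of farnesyl diphosphate, had 9.23, 10.76 and 11.32 in IPC+IPO, 10.57, 10.86 and 11.23 in IPO, 10.49, 11.10 and 11.31 in IPC, 10.64, 11.09 and 11.47 in IRI and 9.23, 9.99 and 11.23 in sham livers. All 10 IRI animals lay above the sham median and 4 lay above every sham animal, and the groups overlapped through sham animals 43 and 48. Fdps rose 1.97-fold in IRI against sham, with a log2 difference of 0.98 ± 0.19 (SE, limma adjusted p = 0.0192). Tm7sf2, a sterol reductase that acts after lanosterol demethylation, had 8.20, 9.71 and 10.41 in IPC+IPO, 7.86, 9.88 and 10.25 in IPO, 8.69, 9.95 and 10.33 in IPC, 9.23, 9.80 and 10.50 in IRI and 7.96, 8.42 and 9.92 in sham livers. Again all 10 IRI animals lay above the sham median, and 3 above every sham animal, with sham animals 43 and 48 among the IRI values. Tm7sf2 rose 2.19-fold, by 1.13 ± 0.27 (SE, limma adjusted p = 0.0462).

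Leaving out 1 animal at a time, Fdps kept its call in 44 of 48 refits (adjusted p from 0.000577 to 0.0769) and Tm7sf2 in 17 of 48 (adjusted p from 0.00467 to 0.134). For these refits the share of all genes is not given here. The count of called genes was 0 without IRI animal 9 or sham animal 44, 45 or 47, and 5 without sham animal 43 or 48. It was 4 without IPC+IPO animal 37. It was 1 without any one of IRI animals 3, 4, 5, 6 and 10, IPC animals 13, 14, 16 and 18, IPO animals 21, 22, 23, 25, 26, 27, 28 and 29, IPC+IPO animals 31, 32, 33, 35, 36, 39 and 40, and sham animals 41, 42 and 46. With spread as a covariate 5 genes were called: Fdps at 0.90 (adjusted p = 0.00255), Tm7sf2 at 1.0 (0.00607), Pmvk at 0.74 (0.0126), Cyp51 at 0.52 (0.026) and Insig1 at 0.69 (0.0498). In that fit 854 of 14506 genes (5.89%) were called in either direction, against 35 without the covariate. Without the 14 arrays of lowest spread, which leaves 6 IRI and 2 sham arrays, none of the 32 was called, 17 of them lay above 0, the median of the sterol arm turned to -0.13, and the difference of Tm7sf2 was -0.18. With the covariate that median was 0.32. Array weights in the fit called 16 genes, for which the share of all genes is not given here, and a fit of the IRI and sham arrays alone called 0.

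**Figure D2:**
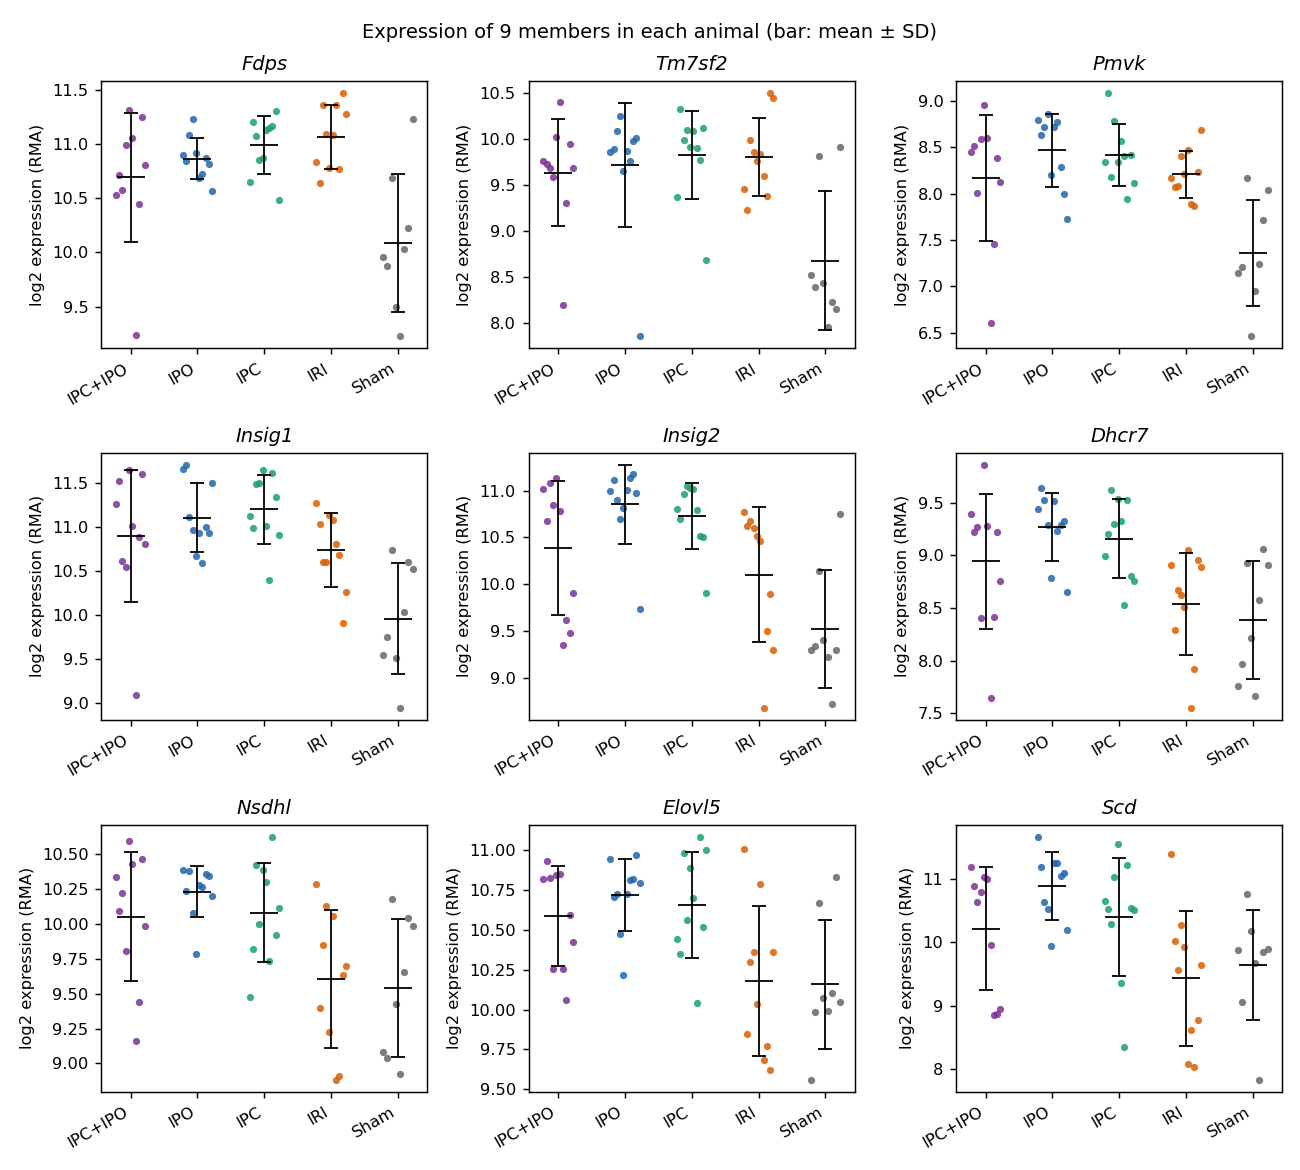
Log2 expression (RMA) of 9 genes in each of the 48 animals, with group mean and SD. Fdps and Tm7sf2 are higher in IRI than in sham livers by 0.98 and 1.13, whereas Dhcr7, Nsdhl, Elovl5 and Scd differ between them by 0.15, 0.06, 0.02 and -0.21.

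Each conditioned group was also set against sham, which asks how far the conditioned livers stood from livers without ischemia. These comparisons share the 8 sham arrays. The number of the 32 genes that rose was 4 in IPC+IPO, 20 in IPO and 18 in IPC livers, and none fell. Of all genes 3.05%, 15.4% and 5.6% rose, and 0.565%, 7.76% and 0.986% fell. Among the 4835 brightest, where 30 of the 32 lie, 7.92%, 36.9% and 14.7% of genes rose. At an unadjusted p under 0.05, 19, 25 and 25 of the 32 were higher and 0 lower, against 15.9%, 24.2% and 16.3% of all genes higher and 7.67%, 16.5% and 7.53% lower. The median difference of the sterol arm was 0.45 in IPC+IPO, 0.47 in IPO and 0.54 in IPC livers, that of the regulators 0.59, 0.74 and 0.73, and that of the lipogenic arm 0.43, 0.75 and 0.73. Over all genes these medians were 0.01, 0.00 and 0.01, and a median over the 4835 brightest genes is not given here. With spread as a covariate the sterol medians were 0.18, 0.19 and 0.37 in the same order. In that fit the regulator medians were 0.25, 0.17 and 0.34, and the lipogenic medians 0.11, 0.38 and 0.39.

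**Figure D3:**
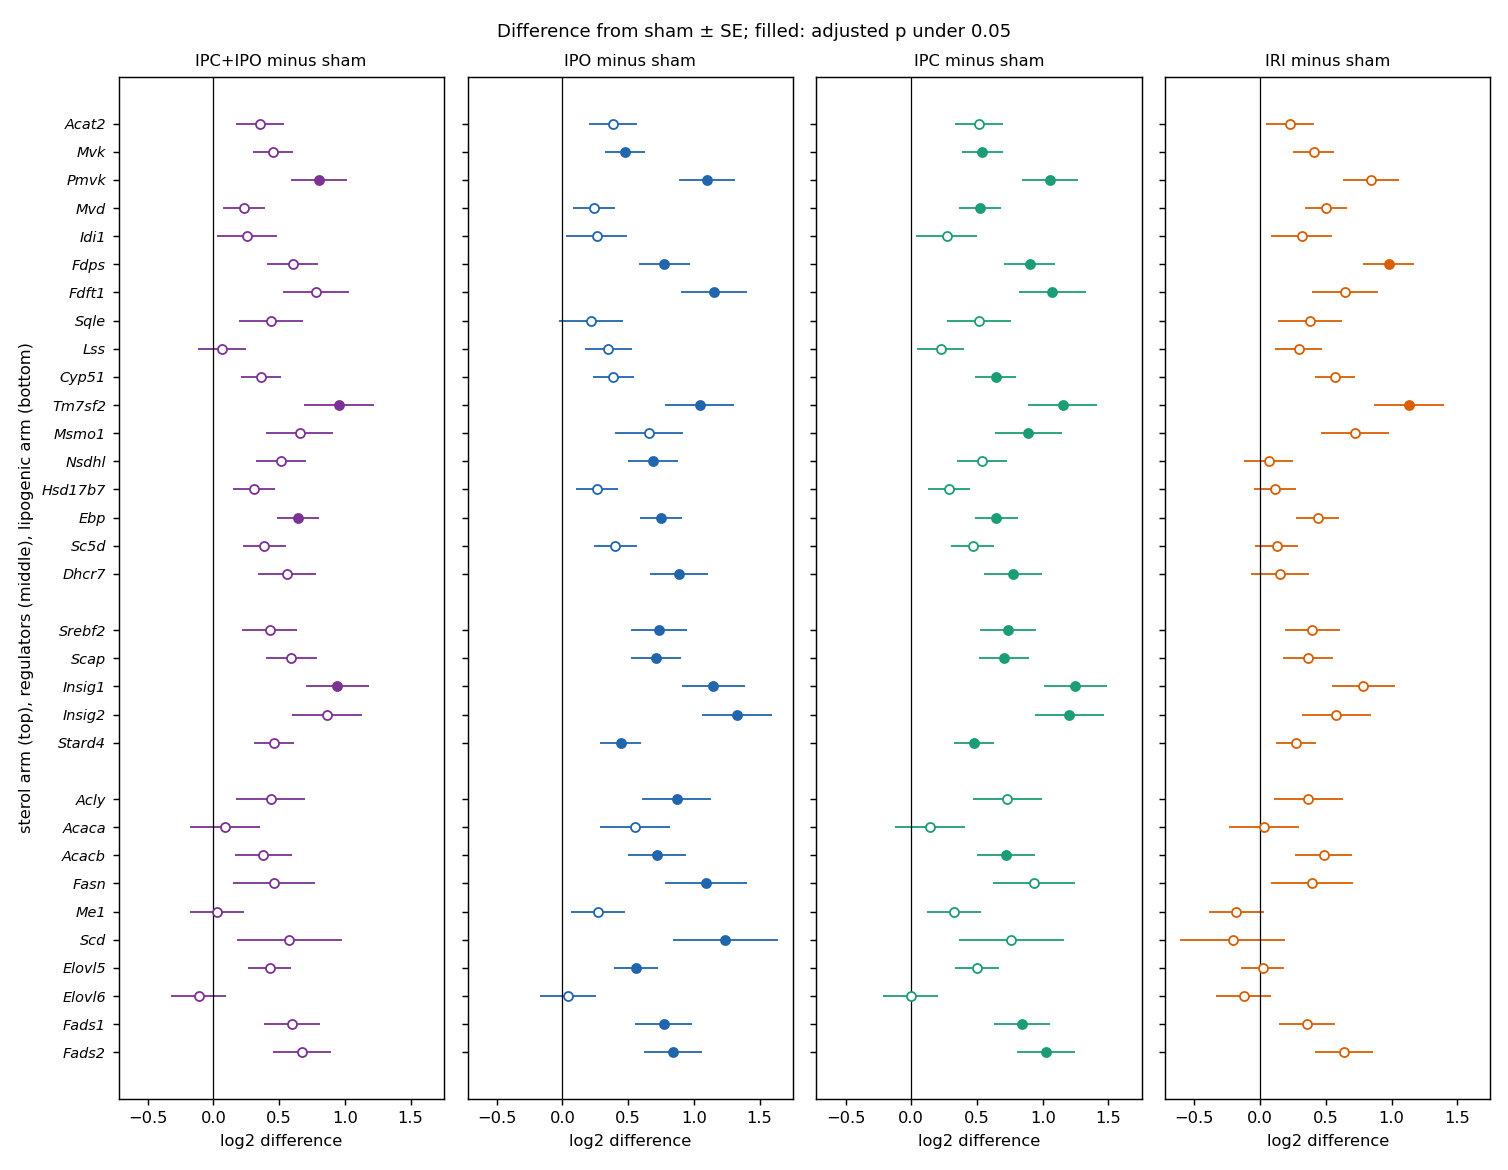
Log2 difference from sham with its SE for the 32 genes in IPC+IPO, IPO, IPC and IRI livers, with filled points for an adjusted p under 0.05. All 17 sterol genes lie above 0 in each of the 4 panels, and 4, 20, 18 and 2 of the 32 genes are called. Of all genes 52.6%, 50.1%, 51.7% and 58.4% lie above 0, and 3.05%, 15.4%, 5.6% and 0.172% rose.

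In the first steps of the sterol arm, Mvk, the mevalonate kinase, had 6.85, 7.74 and 8.18 in IPC+IPO, 7.17, 7.73 and 7.97 in IPO, 7.35, 7.79 and 7.98 in IPC, 7.18, 7.66 and 8.17 in IRI and 6.90, 7.05 and 7.95 in sham livers. Sham animal 43, at 7.95, lay above all but 1 of the IPO and all but 1 of the IPC animals. Mvk rose in IPO by 0.47 ± 0.15 and in IPC by 0.54 ± 0.15 against sham (SE, limma adjusted p = 0.0258 and 0.0295). Pmvk, which adds the second phosphate to mevalonate, had 6.61, 8.41 and 8.95 in IPC+IPO, 7.72, 8.67 and 8.85 in IPO, 7.94, 8.37 and 9.08 in IPC, 7.87, 8.19 and 8.68 in IRI and 6.47, 7.22 and 8.16 in sham livers. 6 IPC+IPO, 8 IPO and 8 IPC animals of 10 lay above every sham animal, and IPC+IPO animal 37 lay near the lowest sham value. Pmvk rose 1.74-fold in IPC+IPO, 2.15-fold in IPO and 2.07-fold in IPC (limma adjusted p = 0.031, 0.00176 and 0.0032). Mvd, which decarboxylates mevalonate diphosphate, had 6.72, 7.23 and 7.96 in IPC+IPO, 7.11, 7.26 and 7.69 in IPO, 7.14, 7.59 and 8.35 in IPC, 6.91, 7.45 and 8.25 in IRI and 6.59, 7.10 and 7.42 in sham livers. All 10 IPC animals lay above the sham median, 7 of them above every sham animal. Mvd rose in IPC by 0.52 ± 0.16 (SE, limma adjusted p = 0.0404).

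Fdps, whose values stand above, rose 1.71-fold in IPO and 1.87-fold in IPC livers against sham (limma adjusted p = 0.00732 and 0.00469). Its IPC+IPO difference was 0.60 ± 0.19 and did not pass (SE, adjusted p = 0.0619), with animal 37 at 9.23 and the next lowest animal at 10.45. Fdft1, the squalene synthase at the branch to sterols, had 7.44, 9.62 and 10.02 in IPC+IPO, 9.17, 9.68 and 9.87 in IPO, 8.98, 9.55 and 9.90 in IPC, 8.33, 9.30 and 9.82 in IRI and 7.53, 8.40 and 9.42 in sham livers. 8 of 10 IPO and 8 of 10 IPC animals lay above every sham animal, while IPC+IPO animals reached from below the lowest sham value to the highest value of all groups. Fdft1 rose 2.23-fold in IPO and 2.11-fold in IPC (limma adjusted p = 0.00388 and 0.00956).

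Cyp51, which demethylates lanosterol, had 8.86, 9.92 and 10.31 in IPC+IPO, 9.66, 9.85 and 10.20 in IPO, 9.60, 10.14 and 10.46 in IPC, 9.72, 9.99 and 10.63 in IRI and 8.87, 9.47 and 10.15 in sham livers. All IPC animals lay above the sham median and 5 above every sham animal. Cyp51 rose in IPC by 0.64 ± 0.15 (SE, limma adjusted p = 0.0112). Tm7sf2, with the values given above, rose 1.94-fold in IPC+IPO, 2.06-fold in IPO and 2.22-fold in IPC (limma adjusted p = 0.0369, 0.00791 and 0.00846). IPO animal 30, at 7.86, lay below the lowest sham animal, with the other 9 IPO animals at 9.65 or more. Msmo1, the methylsterol monooxygenase, had 7.44, 9.37 and 10.56 in IPC+IPO, 9.04, 9.43 and 9.95 in IPO, 8.93, 9.77 and 10.37 in IPC, 8.94, 9.44 and 10.06 in IRI and 7.58, 8.83 and 10.02 in sham livers. Sham animal 43, at 10.02, lay above every IPO animal. Msmo1 rose in IPC by 0.89 ± 0.26 (SE, limma adjusted p = 0.0308).

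In the last steps, Nsdhl, a sterol dehydrogenase and decarboxylase, had 9.16, 10.16 and 10.60 in IPC+IPO, 9.78, 10.27 and 10.39 in IPO, 9.48, 10.06 and 10.63 in IPC, 8.88, 9.66 and 10.29 in IRI and 8.93, 9.54 and 10.18 in sham livers. 8 of 10 IPO animals lay above every sham animal. Nsdhl rose in IPO by 0.69 ± 0.19 (SE, limma adjusted p = 0.0116). Ebp, the sterol isomerase, had 9.54, 10.53 and 10.73 in IPC+IPO, 9.57, 10.62 and 10.84 in IPO, 9.91, 10.48 and 10.70 in IPC, 9.78, 10.18 and 10.58 in IRI and 9.26, 9.58 and 10.55 in sham livers. In each conditioned group at least 9 of 10 animals lay above the sham median, and sham animals 43 and 48 lay within the range of each. Ebp rose 1.56-fold in IPC+IPO, 1.68-fold in IPO and 1.57-fold in IPC (limma adjusted p = 0.0249, 0.00372 and 0.0153). Dhcr7, the reductase of the final step to cholesterol, had 7.64, 9.22 and 9.86 in IPC+IPO, 8.65, 9.31 and 9.64 in IPO, 8.53, 9.25 and 9.62 in IPC, 7.55, 8.65 and 9.05 in IRI and 7.66, 8.39 and 9.06 in sham livers. 8 IPO and 6 IPC animals of 10 lay above every sham animal. Dhcr7 rose 1.85-fold in IPO and 1.71-fold in IPC (limma adjusted p = 0.00722 and 0.03).

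All 5 measured regulators rose in IPO and in IPC livers against sham, where 15.4% and 5.6% of all genes rose. Of the 4835 brightest genes 36.9% and 14.7% rose. With spread as a covariate none of the 5 regulators was called in IPO, and only Insig1 and Insig2 were called in IPC. Srebf2, the sterol transcription factor, had 6.29, 7.85 and 8.10 in IPC+IPO, 7.58, 7.86 and 8.09 in IPO, 7.09, 7.85 and 8.23 in IPC, 6.57, 7.70 and 8.10 in IRI and 6.62, 7.11 and 7.95 in sham livers. All 10 IPO animals lay above the sham median, and 3 above every sham animal. It rose by 0.74 ± 0.21 in IPO and 0.73 ± 0.21 in IPC (SE, limma adjusted p = 0.0142 and 0.0304). Scap, the escort protein, had 6.62, 7.89 and 8.06 in IPC+IPO, 7.31, 7.81 and 8.08 in IPO, 7.07, 7.84 and 8.03 in IPC, 6.37, 7.55 and 7.93 in IRI and 6.69, 6.88 and 8.0 in sham livers. The sham maximum was again animal 43, at 8.00, with the next sham animal at 7.27. Scap rose by 0.71 ± 0.19 in IPO and 0.70 ± 0.19 in IPC (SE, limma adjusted p = 0.0102 and 0.0218).

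Insig1, an anchor of Scap and a target of the sterol factor, had 9.09, 10.95 and 11.64 in IPC+IPO, 10.58, 10.98 and 11.70 in IPO, 10.40, 11.23 and 11.65 in IPC, 9.91, 10.74 and 11.27 in IRI and 8.94, 9.89 and 10.73 in sham livers. 7 IPC+IPO, 8 IPO and 9 IPC animals of 10 lay above every sham animal. Insig1 rose 1.92-fold in IPC+IPO, 2.22-fold in IPO and 2.37-fold in IPC (limma adjusted p = 0.0259, 0.00325 and 0.00211). A second, dimmer probe set of Insig1 gave log2 differences of 1.37 in IPC+IPO, 1.58 in IPO, 1.87 in IPC and 1.37 in IRI against sham (limma adjusted p = 0.00845, 0.00151, 0.000188 and 0.0207 over all probe sets). The probe sets differed in their call for IRI against sham, where the one used for Insig1 gave 0.78 ± 0.24 (SE, adjusted p = 0.133). Insig2, the second anchor of Scap, had 9.35, 10.73 and 11.13 in IPC+IPO, 9.74, 10.98 and 11.18 in IPO, 9.90, 10.80 and 11.05 in IPC, 8.69, 10.49 and 10.78 in IRI and 8.73, 9.32 and 10.75 in sham livers. 8 IPO and 6 IPC animals of 10 lay above every sham animal, of which number 48 was the highest. Insig2 rose 2.51-fold in IPO and 2.3-fold in IPC (limma adjusted p = 0.00217 and 0.00557). Stard4, a carrier of cholesterol between membranes, had 6.34, 7.21 and 7.41 in IPC+IPO, 6.77, 6.96 and 7.31 in IPO, 6.21, 7.17 and 7.58 in IPC, 5.98, 6.89 and 7.46 in IRI and 6.32, 6.56 and 6.83 in sham livers. 8 of 10 animals of each conditioned group lay above every sham animal, and the lowest IPC animal, number 12, lay below every sham animal. Stard4 rose by 0.44 ± 0.15 in IPO and 0.48 ± 0.15 in IPC (SE, limma adjusted p = 0.033 and 0.0472). With 1 animal left out at a time, the call of Stard4 in IPC was lost in 30 of 48 refits, with adjusted p from 0.0186 to 0.115.

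In the lipogenic arm 0 of 10 genes rose in IPC+IPO, 7 in IPO and 3 in IPC livers against sham (limma). Of the 4835 brightest genes 7.92%, 36.9% and 14.7% rose. At an unadjusted p under 0.05 there were 3 in IPC+IPO, against 15.9% of all genes higher. With spread as a covariate only Fads2 in IPC remained called. Acly, which makes cytosolic acetyl-CoA from citrate, had 7.30, 8.63 and 9.26 in IPC+IPO, 8.18, 9.06 and 9.84 in IPO, 7.73, 9.10 and 9.63 in IPC, 7.71, 8.55 and 9.30 in IRI and 7.07, 8.17 and 9.43 in sham livers. All 10 IPO animals lay above the sham median, but sham animal 47, at 9.43, exceeded 8 of them. Acly rose in IPO by 0.87 ± 0.26 (SE, limma adjusted p = 0.0185). Fasn, the fatty acid synthase, had 6.75, 8.56 and 9.68 in IPC+IPO, 8.16, 8.90 and 9.64 in IPO, 7.30, 8.69 and 9.98 in IPC, 7.22, 8.38 and 8.79 in IRI and 6.64, 7.93 and 8.68 in sham livers. 8 of 10 IPO animals lay above every sham animal. Fasn rose in IPO by 1.09 ± 0.31 (SE, limma adjusted p = 0.014), and its IPC difference was 0.93 ± 0.31 (adjusted p = 0.059). Acacb, the mitochondrial acetyl-CoA carboxylase, had 6.0, 6.89 and 7.44 in IPC+IPO, 6.55, 7.22 and 7.43 in IPO, 5.97, 7.29 and 7.71 in IPC, 6.13, 7.10 and 7.57 in IRI and 5.89, 6.26 and 7.08 in sham livers. 7 IPO and 6 IPC animals of 10 lay above every sham animal, and the lowest IPC animal, number 17, was within the sham range. Acacb rose by 0.72 ± 0.22 in IPO and 0.72 ± 0.22 in IPC (SE, limma adjusted p = 0.0185 and 0.0401).

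Scd, the stearoyl-CoA desaturase, had 8.85, 10.71 and 11.18 in IPC+IPO, 9.94, 11.07 and 11.66 in IPO, 8.35, 10.53 and 11.55 in IPC, 8.03, 9.60 and 11.39 in IRI and 7.83, 9.86 and 10.76 in sham livers. It had wide groups, and 6 of 10 IPO animals lay above every sham animal. Scd rose 2.36-fold in IPO (limma adjusted p = 0.025). Elovl5, which elongates polyunsaturated fatty acids, had 10.06, 10.71 and 10.93 in IPC+IPO, 10.22, 10.76 and 10.97 in IPO, 10.04, 10.63 and 11.09 in IPC, 9.62, 10.17 and 11.01 in IRI and 9.56, 10.06 and 10.83 in sham livers. All 10 IPO animals lay above the sham median and 2 above every sham animal. Elovl5 rose in IPO by 0.56 ± 0.16 (SE, limma adjusted p = 0.0157). Fads1, a desaturase of polyunsaturated fatty acids, had 8.85, 10.13 and 10.72 in IPC+IPO, 9.42, 10.25 and 10.58 in IPO, 9.34, 10.26 and 10.89 in IPC, 9.33, 9.68 and 10.36 in IRI and 8.74, 9.37 and 10.40 in sham livers. Sham animal 47, at 10.40, lay above 7 of the 10 IPO animals. Fads1 rose by 0.77 ± 0.21 in IPO and 0.84 ± 0.21 in IPC (SE, limma adjusted p = 0.0122 and 0.0161). Fads2, the desaturase of the first step of that route, had 9.65, 11.23 and 11.84 in IPC+IPO, 10.50, 11.30 and 11.86 in IPO, 10.53, 11.49 and 12.12 in IPC, 10.57, 11.08 and 11.71 in IRI and 9.62, 10.38 and 11.37 in sham livers. 4 IPO and 7 IPC animals of 10 lay above every sham animal. Fads2 rose 1.8-fold in IPO and 2.04-fold in IPC (limma adjusted p = 0.00885 and 0.00457).

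The calls against sham moved with array spread. With spread as a covariate 0 of the 4 genes in IPC+IPO, 0 of the 20 in IPO and 5 of the 18 in IPC livers remained called. The 5 were Pmvk, Fdps, Insig1, Insig2 and Fads2, with log2 differences in IPC of 0.77, 0.69, 0.99, 0.73 and 0.74 (limma adjusted p from 0.0155 to 0.0399). In that fit 27 of the 32 genes in IPC+IPO, 27 in IPO and 31 in IPC livers kept a difference above 0, and of all genes 0.234%, 0% and 1.9% were called in either direction. Without the 14 arrays of lowest spread, which leaves 8 IPC+IPO, 9 IPO, 9 IPC and only 2 sham arrays, none was called in these comparisons, and the median of the sterol arm was 0.15 in IPC+IPO, 0.03 in IPO and 0.04 in IPC livers. Array weights called 28 genes in IPC+IPO and 30 in IPC livers, and quantile normalisation renewed over all arrays called 0 in IPC+IPO, 8 in IPO and 10 in IPC livers. With that normalisation 2.16%, 9.41% and 4.9% of all genes were called in either direction. For array weights the share of all genes is not given here, so those counts stand without a background. In IPC+IPO a fit of its own and the sham arrays alone called 0. Of the 8 sham animals, numbers 43 and 48 had a spread of 1.96 and 1.91 and a sterol level of 0.263 and -0.069. The other 6 had spreads from 1.61 to 1.70 and sterol levels from -1.03 to -0.169.

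**Figure D4:**
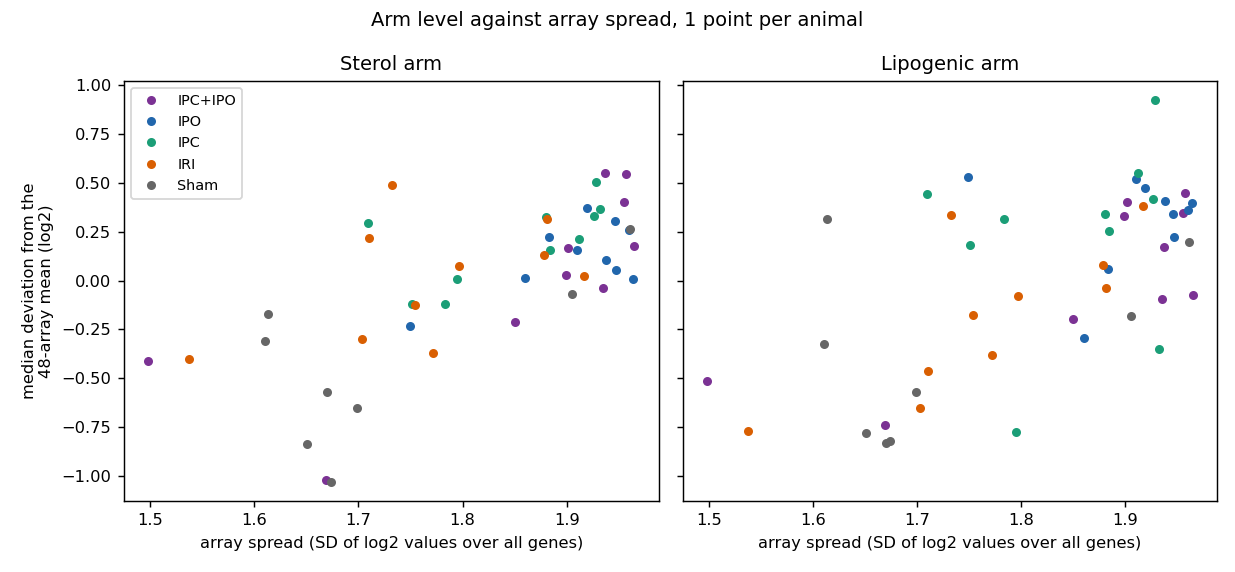
Level of the sterol arm and of the lipogenic arm (log2, median deviation from the mean over 48 arrays) against the spread of the array, 1 point per animal. Sham animals 43 and 48, with spreads of 1.96 and 1.91, lie at 0.263 and -0.069 in the sterol panel, and IPC+IPO animals 37 and 38, with spreads of 1.67 and 1.498, lie at -1.019 and -0.411.

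Single animals moved these counts. The share of all genes called in each refit is not given here, so the counts below stand without a background. Against sham, the count was 18 in IPC+IPO, 25 in IPO and 24 in IPC without sham animal 43. In IPC+IPO it was 16 without IPC+IPO animal 37 or 38, 12 without sham animal 48 and 7 without IRI animal 7. It was 0 there without IPC+IPO animal 35 or 36 or sham animal 41, 42, 44, 45 or 46, 1 without IPC+IPO animal 32 or 39 or sham animal 47, and 2 without IPC+IPO animal 31 or 40. In IPC it was 9 without sham animal 41, 42 or 45, 10 without sham animal 46, 11 without sham animal 44 and 12 without IPC animal 18. In IPO it stayed between 17 and 25. Of the 4 genes called in IPC+IPO, Tm7sf2 lost its call in 13 of 48 refits, Pmvk in 12, Insig1 in 9 and Ebp in 8. In IPC, Mvd lost it in 12, Acacb in 11 and Dhcr7 in 9.

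The comparisons with IRI ask what conditioning added to the response to ischemia, and share the 10 IRI arrays. Of the 32 genes 0 were called in IPC+IPO, 5 in IPO and 0 in IPC livers (limma), while of all genes 0%, 12.4% and 0.0138% rose and 0%, 10.4% and 0.0138% fell. Of the 4835 brightest genes 0%, 26.4% and 0.0207% rose. At an unadjusted p under 0.05, 3 were higher and 1 lower in IPC+IPO, 12 and 0 in IPO, and 9 and 0 in IPC. Of all genes 11.5%, 21.6% and 10% were higher at that threshold and 9.96%, 22.9% and 9.29% lower. With array weights in the limma fit the counts were 7, 12 and 2, for which the share of all genes is not given here. In IPO 5 of 32, or 2 of 17 sterol genes, 1 of 5 regulators and 2 of 10 lipogenic genes, rose. The share of the 32 that rose in IPO lay between that of all genes and that of bright genes. The median difference of the sterol arm was 0.05 in IPC+IPO, 0.07 in IPO and 0.17 in IPC livers, and that of the lipogenic arm 0.07, 0.48 and 0.43. With spread as a covariate the sterol median turned to -0.18, -0.17 and -0.01, and the lipogenic median was -0.01, 0.23 and 0.28. In that fit 21 of the 32 genes in IPC+IPO, 18 in IPO and 10 in IPC livers lay below 0. Renewed quantile normalisation also turned the sterol median, to -0.09 in IPC+IPO and -0.05 in IPO livers. Without the 14 arrays of lowest spread it was 0.24 in IPC+IPO, 0.15 in IPO and 0.14 in IPC livers.

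**Figure D5:**
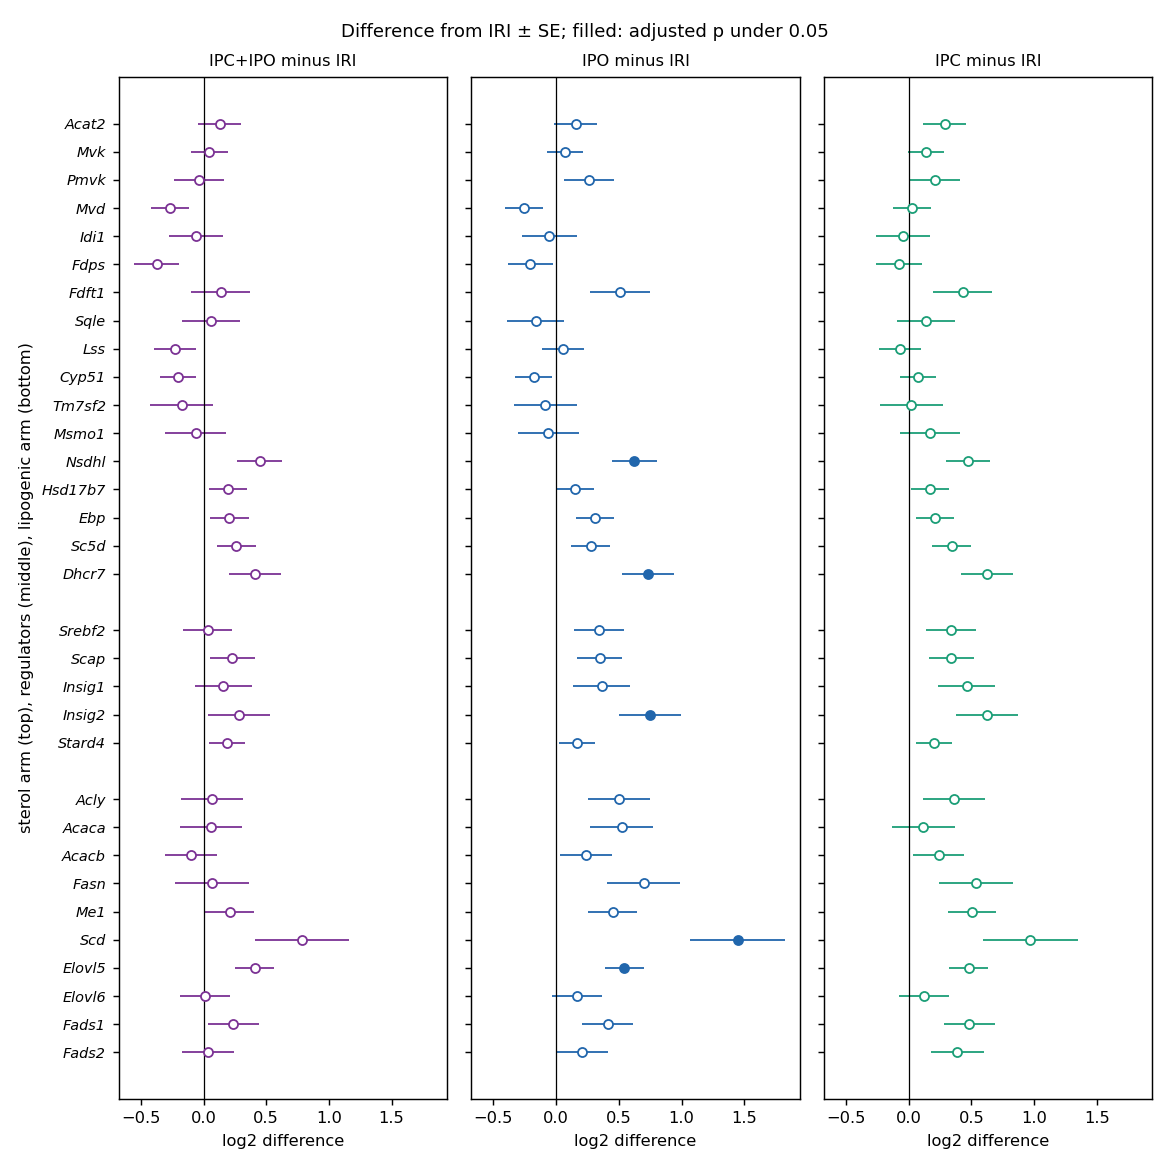
Log2 difference from IRI with its SE for the 32 genes in IPC+IPO, IPO and IPC livers, with filled points for an adjusted p under 0.05. In the IPO panel Dhcr7, Nsdhl, Insig2, Elovl5 and Scd are filled, and the 10 lipogenic genes all lie above 0 there and in the IPC panel.

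Scd had the largest rise of the 32 genes in IPO against IRI, 2.73-fold or 1.45 ± 0.38 on the log2 scale (SE, limma adjusted p = 0.0153). All 10 IPO animals lay above the IRI median of 9.60, but IRI animal 1, at 11.39, exceeded 9 of them. Elovl5 rose by 0.54 ± 0.16 (SE, adjusted p = 0.0197), again with all 10 IPO animals above the IRI median and IRI animal 1 above every IPO animal. Dhcr7 rose 1.66-fold (limma adjusted p = 0.0191), and 8 of 10 IPO animals lay above every IRI animal. Nsdhl rose by 0.62 ± 0.18 (SE, adjusted p = 0.0193), with 4 IPO animals above every IRI animal. Insig2 rose by 0.75 ± 0.25 (SE, adjusted p = 0.0314), with 8 IPO animals above every IRI animal and IPO animal 30, at 9.74, above only IRI animals 7, 8 and 10. None of these 5 was called in IRI against sham, where their differences were -0.21, 0.02, 0.15, 0.06 and 0.58. Fdps and Tm7sf2, called in IRI against sham, differed in IPO from IRI by -0.20 ± 0.18 and -0.09 ± 0.25 (SE, adjusted p = 0.364 and 0.787).

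Without IRI animal 7 only Scd was called in IPO against IRI: Dhcr7 stood at 0.62 (adjusted p = 0.0626), Nsdhl at 0.54 (0.062), Elovl5 at 0.49 (0.0601) and Insig2 at 0.59 (0.102). That array had a spread of 1.54, the lowest of the IRI group, and the lowest value of its group in 14 of the 32 genes. Without IRI animal 1 or IPO animal 30 the count was 7, and the share of all genes in these refits is not given here. With spread as a covariate none of the 5 was called: Scd stood at 0.96 (limma adjusted p = 0.343), Dhcr7 at 0.34 (0.511), Nsdhl at 0.25 (0.537), Elovl5 at 0.29 (0.479) and Insig2 at 0.23 (0.727). In that fit 2 of all 14506 genes were called. Without the 14 arrays of lowest spread Dhcr7 remained called, together with Ebp and Fdft1. In that setting 7.42% of all genes were called in either direction, so 3 of the 32 was near the share of all genes. Of the 10 hepatocyte markers 4 rose and 1 fell in IPO against IRI, and of the 6 Kupffer cell markers 2 rose. Of the 6 stellate and mesenchymal markers 1 rose, and of 4 neutrophil and 3 erythroid markers 1 each fell. In this comparison 12.4% of all genes and 26.4% of the 4835 brightest genes rose, and 10.4% of all genes fell. The markers' part in these differences was not tested.

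The IPC and IPC+IPO differences from IRI missed the threshold throughout. In IPC the smallest adjusted p among the 32 was that of Elovl5, at 0.48 ± 0.16 (SE, limma adjusted p = 0.162), followed by Dhcr7 at 0.62 ± 0.21 (adjusted p = 0.164). In IPC+IPO it was again Elovl5, at 0.41 ± 0.16 (SE, limma adjusted p = 0.144). Without IRI animal 1 the count was 1 in IPC and 1 in IPC+IPO, and without IPC+IPO animal 38 it was 1 in IPC+IPO. The share of all genes in these refits is not given here.

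Differences between the conditioning protocols were tested directly. None of the 32 genes was called in IPC+IPO against IPO, in IPC+IPO against IPC or in IPO against IPC (limma), nor was any gene of the array (0% each). At an unadjusted p under 0.05 the counts were 1 (lower), 0 and 0, and array weights also gave 0 calls. Of all genes 1.72%, 0.82% and 2.09% were higher at that threshold and 1.6%, 0.8% and 1.97% lower. The differences lay below 0 in 29 of 32 genes for IPC+IPO against IPO, with a median of -0.17, and in 31 of 32 for IPC+IPO against IPC, with a median of -0.20. Of all genes 51.2% and 49.8% lay above 0. Without the 14 arrays of lowest spread 16 of 32 and 13 of 32 lay below 0, with medians of 0.0031 and 0.0177, so this pattern was not present there. With the covariate 19 and 31 of the 32 lay below 0. The interaction, the effect of adding IPO to preconditioned livers minus its effect in livers without preconditioning, was below 0 in 30 of 32 genes, with 53% of all genes above 0, and with a median of -0.49 against 0.03 over all genes, but called 0. At an unadjusted p under 0.05, 12 of the 32 were lower and 0 higher, against 10.5% and 9.83% of all genes. The 12 were 3 sterol genes, 3 regulators and 6 lipogenic genes. Scd stood at -1.63 ± 0.53, Fasn at -1.17 ± 0.42, Insig2 at -1.09 ± 0.35 and Dhcr7 at -0.95 ± 0.29 (SE, limma adjusted p from 0.205 to 0.209). With spread as a covariate the median over the 32 was -0.23 and that of the sterol arm 0.04, and without the 14 arrays of lowest spread the median over the 32 was -0.16.

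Of the 32 genes 9 were called in none of the 10 pairwise comparisons. They were Acat2, the cytosolic acetoacetyl-CoA thiolase, Idi1, the isomerase of isopentenyl diphosphate, Sqle, the squalene epoxidase, Lss, the lanosterol synthase, Hsd17b7, a keto-sterol reductase, Sc5d, a sterol desaturase, Acaca, the cytosolic acetyl-CoA carboxylase, Me1, which yields NADPH, and Elovl6, which elongates palmitate. Sqle, a rate-limiting enzyme of the arm, had 7.0, 8.19 and 9.23 in IPC+IPO, 7.51, 7.98 and 8.57 in IPO, 7.39, 8.44 and 9.40 in IPC, 7.56, 8.19 and 8.57 in IRI and 6.72, 7.83 and 8.68 in sham livers. The IPC group had the highest median and the sham group the lowest, and in every ischemic group the animals overlapped the sham range. Its difference from sham was 0.44 ± 0.24 in IPC+IPO, 0.21 ± 0.24 in IPO, 0.51 ± 0.24 in IPC and 0.38 ± 0.24 in IRI livers (SE, limma adjusted p from 0.185 to 0.58). The other sterol genes among the 9 differed from sham by 0.07 (Lss in IPC+IPO) to 0.51 (Acat2 in IPC). The 3 lipogenic genes differed from sham by -0.18 (Me1 in IRI) to 0.55 (Acaca in IPO).

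Neighbouring genes of lipid metabolism were counted in the same fits. Of 14 measured genes of sterol handling, 4 rose in IPC+IPO, 5 in IPO and 4 in IPC against sham, 2 rose in IPO against IRI, and none was called in IRI against sham. Of the 4835 brightest genes 7.92%, 36.9% and 14.7% rose in IPC+IPO, IPO and IPC against sham and 26.4% in IPO against IRI, so the IPO counts were near or below that background. Tmem97, a sterol-responsive membrane protein, rose by 0.75 in IPC+IPO, 0.90 in IPO and 0.73 in IPC against sham (limma adjusted p = 0.0369, 0.00507 and 0.03). Npc2, a lysosomal cholesterol carrier, rose by 0.49, 0.41 and 0.54, and Nr1h2, an oxysterol receptor, by 0.65, 0.71 and 0.79 in the same order (adjusted p from 0.00801 to 0.037). Lcat, which esterifies plasma cholesterol, also rose in all of these, by 0.46, 0.42 and 0.45. Nr1h3, a second oxysterol receptor, rose in IPO by 0.56. Mttp, which loads lipid onto apolipoprotein B, rose in IPO against IRI by 0.70 (limma adjusted p = 0.0155), and Tmem97 by 0.57 (0.0358). In IRI against sham the smallest p values were those of Mttp, at -0.59, and Nr1h2, at 0.53 (limma adjusted p = 0.165 and 0.191), and at an unadjusted p under 0.05 there were 2 higher and 1 lower.

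Of 13 measured lipogenic partners, 1 rose in IPC+IPO, 5 in IPO and 2 in IPC against sham, 2 rose in IPO against IRI, and none was called in IRI against sham. The counts in IPC+IPO, IPO and IPC against sham were near the 7.92%, 36.9% and 14.7% of the 4835 brightest genes. That in IPO against IRI was below the 26.4% of the brightest genes and near the 12.4% of all genes. Agpat2, an acyltransferase of triglyceride synthesis, rose by 0.75 in IPC+IPO, 0.87 in IPO and 0.81 in IPC (limma adjusted p = 0.0397, 0.00646 and 0.0187). Slc25a1, the mitochondrial citrate carrier, rose by 0.45 in IPO and 0.55 in IPC. Thrsp and Mid1ip1, a related pair that promotes lipogenesis, rose in IPO by 0.51 and 0.94, and Dgat1, which completes triglycerides, by 0.48. Against IRI, Mid1ip1 rose in IPO by 0.84 and Gpam, the first acyltransferase of triglyceride synthesis, by 0.78 (limma adjusted p = 0.0231 and 0.0175). In IRI against sham the smallest p values were those of Agpat2, at 0.53, and Slc25a1, at 0.25 (limma adjusted p = 0.287 and 0.419), and at an unadjusted p under 0.05 there were 2 higher and 0 lower.

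Within groups the genes varied together between animals. Over the 136 pairs of sterol genes the median Pearson r of the deviations from group means was 0.65, and r was above 0 in all 136. Over 45 lipogenic pairs the median was 0.55, and over 170 pairs of a sterol with a lipogenic gene 0.43. With array spread removed these medians were 0.52, 0.52 and 0.28. All pairs share the same 48 arrays, and the medians are a description. No r of other gene pairs is given here, so whether such values are particular to these genes was not tested. With spread removed, Fdft1 had the highest median r with the other sterol genes, 0.68, and Idi1 the lowest, 0.24.

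Single pairs were tested over the 48 animals on deviations from group means, by 2-sided permutation within groups, with p-values adjusted over the 3 pairs. Fasn followed Acly (Pearson r = 0.894, permutation adjusted p = 1.5e-05; Spearman rho = 0.892, adjusted p = 3e-05), and r was 0.894 without the 2 animals farthest from the median of Fasn. Sqle followed Insig1 (Pearson r = 0.633, permutation adjusted p = 1.5e-05; Spearman rho = 0.566, adjusted p = 0.000195), with r = 0.503 without the 2 farthest animals. Sqle and Fasn, from the 2 arms, had r = 0.397 (permutation adjusted p = 0.0184) and rho = 0.303 (adjusted p = 0.0562). Without the 2 farthest animals their r was 0.244, and no test was run on that value. With spread removed r was 0.894 for Fasn with Acly, 0.547 for Sqle with Insig1 and 0.246 for Sqle with Fasn (permutation adjusted p = 3e-05, 0.000555 and 0.144). For Sqle with Fasn in that setting r was 0.239 without the 2 farthest animals. The unadjusted p for Fasn with Acly, 1e-05, is the smallest that these permutations can give. These tests ask only whether the genes of a pair vary independently, and pairs of other genes were not tested.

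The same animals stood at the ends of many genes. IPC+IPO animal 37 had the lowest value of its group in 22 of the 32 genes and IPC animal 17 in 18. Sham animal 43 had the highest value of its group in 21 genes and sham animal 45 the lowest in 20. In the IPO group the lowest values came from animal 25 in 12 genes and animal 30 in 11. Animal 30 had the lowest sterol level of the IPO group, -0.23, and its highest lipogenic level, 0.532, so it was not low throughout. IPC animal 17 had the lowest lipogenic level of the IPC group, -0.776, with a sterol level of 0.009.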

How the data were processed

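Liver RNA of 48 rats, 1 array each, was measured on Affymetrix arrays. The authors deposited log2 expression values per probe set, made with RMA in Affymetrix Expression Console per the submitters' processing notes. Tool versions were not given in the sources used here. The precision is limited by the number of arrays. Of 29215 probe sets 15310 carried 1 gene symbol, 323 several and 13582 none here, and the highest-mean probe set of each symbol gave 14506 genes. All 48 arrays entered 1 limma fit (limma 3.58.1, R 4.3.3) with 5 groups and 43 residual degrees of freedom, and p-values were adjusted over all 14506 genes with a threshold of 0.05. Labels give each array its own animal number. The procedure was tested on simulated data. Named genes are all 34, with values per group for those called in a pairwise comparison, and neighbouring genes where called or of smallest p. The members and lists were chosen with earlier results of these data known. RefSeq windows (GRCr8) were searched for motifs on both strands, and figures were drawn with matplotlib 3.10.9 (Python 3.11.15). Alternatives changed the groups in the fit, the variance model, array weights, dim genes, the probe set, scaling, array spread and single arrays.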

Additional observations from a re-analysis of the deposited data

Results flagged for a closer look

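Among the 180 sets of group values examined, 24 held an animal whose gap to its nearest neighbour was large against the range of the group (Dixon's test at the 95% level), a size that chance gives in about 1 set of 20. IPC+IPO animal 37 was the low one in 7 genes, with log2 values of 9.23 for Fdps, 8.86 for Cyp51, 8.20 for Tm7sf2, 7.44 for Msmo1, 9.54 for Ebp, 9.09 for Insig1 and 9.65 for Fads2. IPO animal 30 was low at 7.17 for Acat2, 7.17 for Mvk, 7.86 for Tm7sf2, 9.57 for Ebp and 9.74 for Insig2, and high at 7.41 for Lss. The spread of its array, 1.75, was also the low one of the IPO group. IPO animal 25 was low at 9.78 for Nsdhl, 9.26 for Sc5d and 9.42 for Fads1.

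In the IPC group animal 17 was low at 9.34 for Fads1 and 10.53 for Fads2, animal 20 was low at 9.90 for Insig2, and animal 12 was high at 8.35 for Mvd. IRI animal 7 was low at 7.56 for Sqle and 5.69 for Me1, where the next IRI animal stood at 7.37. Sham animal 43 was high at 8.00 for Scap. Values of 1 animal share an array, so these are not separate observations.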

How the results depend on the processing

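Over the 49 calls of single genes, array medians, array weights, the probe set of largest variance and removal of the dimmest genes kept the direction and the call in 49. The trended and robust variance model kept 48, a fit of only the groups compared 41, renewed quantile normalisation 24 and array spread as a covariate 7, and in these the others kept their direction and lost the call. Without the 14 arrays of lowest spread 1 was kept, 41 lost the call and 7 changed sign: Tm7sf2 in IRI (-0.18), IPC (-0.0952) and IPC+IPO (-0.0139), Mvk in IPC (-0.10) and IPO (-0.0909), Ebp in IPC (-0.0981) and Fdps in IPO (-0.0616), all against sham. That setting leaves 2 sham arrays, and the cause was not tested. Counts of called genes among the 32 moved as well. Those with array weights, without the dimmest genes and with only the groups compared stand here without a share of all genes. So do those with 1 animal left out at a time. IRI against sham, 2 as reported, gave 0 with only the groups compared, 16 with array weights, 5 with spread as a covariate and 0 without the arrays of lowest spread. IPC against IRI gave 2 and IPC+IPO against IRI 7 with array weights. IPO against IRI, 5 as reported, gave 12 with array weights, 0 with the covariate and 3 without the arrays of lowest spread, and with renewed quantile normalisation 4 rose and 1, Mvd, fell. IPC+IPO against sham, 4 as reported, gave 0 with only the groups compared, 28 with array weights, 9 without the dimmest genes, and 0 with quantile normalisation, with the covariate and without the arrays of lowest spread. IPO against sham, 20 as reported, gave 8 with quantile normalisation, 0 with the covariate and 0 without the arrays of lowest spread. IPC against sham, 18 as reported, gave 30 with array weights, 10 with quantile normalisation, 5 with the covariate and 0 without the arrays of lowest spread. With 1 animal left out at a time the counts ranged from 0 to 5 (IRI against sham), 0 to 1 (IPC against IRI), 1 to 7 (IPO against IRI), 0 to 1 (IPC+IPO against IRI), 9 to 24 (IPC against sham), 17 to 25 (IPO against sham), 0 to 18 (IPC+IPO against sham) and 0 to 0 among the conditioned groups. The arm and regulator medians moved by less than the spread between animals in 18 of 21 with the covariate, 19 with array weights, 15 without the arrays of lowest spread and in every one of the 21 under the other 6 settings, although some medians near 0 changed sign, such as that of the sterol arm in IPO against IRI with the covariate (-0.17). With CCAAT counted on the gene strand only, 7 of 27 windows held it (20.4% of all windows), against 20 on both (36.1%). No paired analysis was possible because animals are numbered once over all groups. Batches could not be examined, since the labels used here give none, and dim genes such as Elovl6 limit what small differences can be read.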
